A study of Homo sapiens with 4 samples.

Results

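MSX1, MSX2 and FST are genes that BMP signalling is known to switch on or that act back on it, and they were followed here in TRAP-seq of the human ATOH1 lineage. All 3 genes were taken by name, and they stand among 1650 genes whose transcripts could be tied to a gene symbol. TRAP pulls down ribosomes that carry a tagged subunit, so an immunoprecipitate (IP) is meant to hold mRNA bound by ribosomes of the tagged cells. The input is meant to stand for the culture as a whole. The study also calls its input unbound, so whether it is lysate before or after the pull-down is not settled here. The tag was EGFP-L10a under a human ATOH1 enhancer, delivered by lentivirus into RUES2, a human embryonic stem cell line, of which clonal lines were expanded. The culture therefore reports ATOH1 enhancer activity in cloned lines of 1 cell line, not in cerebellar tissue.

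The 3 IP libraries came from 3 independent differentiation experiments harvested at day in vitro (DIV) 28, against which stands 1 input library. IP and input cultures went through the same protocol. They were kept in puromycin, with the SMAD pathway inhibitors SB431542 and LDN-193189 from DIV0 to 7, CHIR99021 from DIV1 to 11, FGF2 from DIV1 to 28, BMP7 from DIV7 to 15 and BDNF from DIV11 to 28. LDN-193189 is an inhibitor of BMP type I receptors, so a BMP receptor blocker came first and a BMP ligand after it, and the harvest came after BMP7 had been withdrawn.

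Bone morphogenetic proteins (BMPs) bind paired type I and type II receptors, which phosphorylate SMAD proteins, and these enter the nucleus with SMAD4 and turn on target genes. In the hindbrain of chick and mouse embryos the roof plate secretes BMPs, and the adjoining rhombic lip, which gives rise to the ATOH1 lineage, depends on them. MSX1 and MSX2 encode closely related homeobox transcription factors, mostly repressors, that are widely used as readouts of BMP signalling in the dorsal midline, the neural crest and mesenchyme. FST encodes follistatin, a secreted protein that captures activins and, less tightly, some BMPs.

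Total estimated counts were 34603230, 36860319 and 37719839 in IP replicates 1, 2 and 3 and 41173019 in the input. The labels and the files name different libraries as the input, since the sample labelled input carries a tag in its title that is found in the file name of a sample labelled IP. The library of the file with that tag is taken as the input here. Over 73 genes tied to a transcript by mean count alone, fold changes with this library as input correlated with those of the study's own table at r = 0.938. With each other library as input r lay between -0.829 and -0.672. These genes had large fold changes in that table. The scaling behind the mean count was fitted on other genes with this library already taken as input, so the check is not fully independent. ATOH1, whose enhancer drives the tag, was at 37.8, 50.6 and 44.1 TPM in the IPs, against 0.304 TPM in the input. TPM is Salmon's abundance per transcript length, scaled to a fixed total per library. The mean ratio of IP to input for ATOH1 was 145, on 7 input reads. The study reports most cells as ATOH1-EGFP positive earlier in the protocol, with a lower share later. Whether this input represents such a culture was not tested. GAPDH, a glycolytic housekeeping gene, was at 1437, 1507 and 1589 TPM in the IPs, against 3409 TPM in the input, so it did not stand level between them. If the input is instead taken as labelled, every one of the fold changes of MSX1, MSX2 and FST changes sign and none passes the test.

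MSX1 lies on chromosome 4 of GRCh37 at chr4:4861392-4865663 on the plus strand, MSX2 at chr5:174151585-174157899 on the plus strand and FST at chr5:52776456-52782964 on the plus strand. No other annotated gene overlaps any of them. Both MSX genes have 2 exons, and they encode 303 residues in MSX1 and 267 residues in MSX2. Over the 60 residues where the encoded proteins are most alike 59 are the same, whereas the coding sequence of that stretch agrees at 150 of 180 bases. The pair below, from the coding part of the second exon, is shown because it is how a read tells these paralogs apart. It is 30 bases long, encodes 9 identical residues of 10, and has the 7 bases that differ in capitals, read 5′ to 3′ from the plus strand.
MSX1, chr4:4864580-4864609: tcGctCaGcctcacTgagacGcaggtGaaG
MSX2, chr5:174156314-174156343: tcTctGaAcctcacAgagacCcaggtCaaA
The longest run that both mRNAs share is 28 bases, shorter than the reads of 75 bases. Of the windows of 75 bases along the transcript, 0 of 1866 in MSX1 and 0 of 2225 in FST occur in another annotated gene. In MSX2 it is 10 of 2121 windows, or 0.471%, all shared with 1 other annotation, OR4D1. Reads of the MSX genes could thus be assigned to one or the other nearly everywhere.

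FST makes a pair of transcripts that part ways after the fifth exon, which ends at base 52781057 of chromosome 5. One splices to a last exon starting at base 52781781, reads on to a TAA stop 80 bases past the junction, and encodes 344 residues. The other starts its last exon further upstream, meets a stop there and encodes 317 residues. The junction of the first is shown because it marks the follistatin form that makes up most of the reads, with the fifth exon in lower case and the last exon in capitals, 5′ to 3′ on the plus strand.
FST, 344 residues: ccggatcttgcaactCCATTTCGGAAGACA
The shorter protein lacks the acidic tail of the longer one and is known to hold to heparan sulfate at cell surfaces, whereas the longer one circulates. In the files the transcripts are 1834 bases long, for 344 residues, and 2098 bases long, for 317 residues. Their difference in length equals the distance between the starts of the last exons, and this is how each was given its protein.

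MSX1 stood above the input in the IPs, and MSX2 stood below it. MSX1 was at 327, 268 and 200 TPM in the IPs, against 50.5 TPM in the input. Each IP library lay above the input, the lowest of them by 3.96-fold and the highest by 6.48-fold. The mean level was 265 ± 63.7 TPM in the IPs (SD, n = 3), and the mean ratio to the input was 5.25 ± 1.26 (SD, n = 3). The input value rests on 2411 reads, whose 95% Poisson interval puts the ratio of the IP mean to the input between 5.04 and 5.46. Such intervals cover no more than counting error, because these reads carry no molecular identifiers and PCR copies count again. On counts, the log2 fold change was 2.72 ± 0.30 (standard error), and edgeR's quasi-likelihood test gave an adjusted p of 0.0363. The test takes its spread from the 3 IP libraries and assumes that the single input varies as they do, and with 3 libraries against 1 an exact permutation test could not go below p = 0.25. With the input as labelled, the log2 fold change of MSX1 was -0.87.

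MSX2 was at 146, 139 and 131 TPM in the IPs, against 460 TPM in the input. The IP libraries lay close together and all stood below the input. Their mean was 139 ± 7.51 TPM (SD, n = 3), and the input stood at 3.32 times that mean. The ratio of IP to input was 0.301 ± 0.0163 (SD, n = 3), with the 25461 input reads setting counting limits of 0.298 and 0.305. The log2 fold change was -1.40 ± 0.09 (standard error), with an adjusted p of 0.0221 by edgeR. GAPDH differed in the same direction, at -0.84 ± 0.14 (standard error) on the log2 scale, with an adjusted p of 0.0571 in the same fit. Scaling all libraries to GAPDH, an alternative added after its values were seen, left MSX2 at -0.55 with an adjusted p of 0.117 from edgeR, whereas MSX1 then stood at 3.58 (adjusted p = 0.0219) and FST at 3.29 (adjusted p = 0.0139). That scaling moved the median log2 fold change of all genes and transcripts to 0.94, against 0.10 as reported. The split of calls was then 3775 higher and 172 lower, against 1007 higher and 648 lower as reported. With the input as labelled, the log2 fold change of MSX2 was 0.60.

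FST was at 35.4, 40.7 and 36.6 TPM in the IPs, against 8.47 TPM in the input. Each IP library stood at 4.18-fold the input or higher. How many of all genes have every IP library on one side of the input was not counted, for MSX1 and MSX2 as for FST. The mean was 37.6 ± 2.74 TPM in the IPs (SD, n = 3), a ratio to the input of 4.44 ± 0.324 (SD, n = 3). The input holds 398 FST reads, which sets counting limits of 4.02 and 4.91 on that ratio. The log2 fold change was 2.45 ± 0.20 (standard error), with an adjusted p of 0.0276 by edgeR. With the input as labelled it was -0.26.

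All 3 genes passed the filter on low counts. By edgeR, 2 of them were thus higher and 1 was lower in the IPs, at a background of 2.30% higher and 1.48% lower among all 43817 genes and transcripts tested. Among the 1650 genes tied to a symbol, 29.2% were higher and 26.8% lower. Those tied genes come from the study's own list of called genes, and the tie itself uses the study's fold change, so the direction of MSX1, MSX2 and FST is not independent of that call. With any 1 IP library left out, edgeR called none of the 3 genes, and each kept its direction. limma-voom called none of them either. These fits called 0 of all genes and transcripts tested in either direction, so the loss is not particular to the 3 genes. In bulk libraries, fewer cells of a type and less RNA per cell cannot be told apart. How much of the IP mRNA came from untagged cells was not measured.

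**Figure D1:**
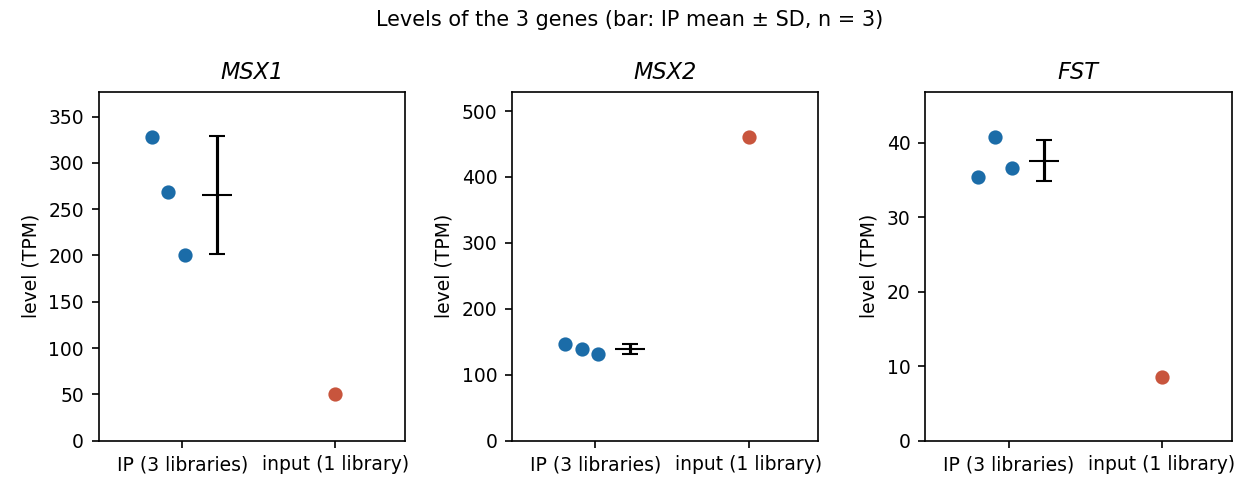
Level of MSX1, MSX2 and FST in TPM (vertical axes, each from 0) in the 3 IP libraries (blue points) and the 1 input library (red point), with the IP mean and SD as a black bar. MSX1 and FST lie above the input in every IP library and MSX2 lies below it.

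The 3 genes differed in how far the IP libraries agreed. In CPM, the count scaled to library size by TMM, MSX2 was at 242, 237 and 237 in the IPs, a coefficient of variation of 1.28%. FST was at 48.9, 57.6 and 54.8 CPM, a coefficient of variation of 8.24%, and MSX1 at 468, 395 and 312 CPM, a coefficient of variation of 20.0%. Over the 1650 tied genes the median coefficient of variation between IPs was 9.97%, with quartiles of 6.14% and 16.1%. In CPM, MSX2 thus varied less than most tied genes and MSX1 more. In TPM the coefficient of variation was 5.42% for MSX2, 7.30% for FST and 24.0% for MSX1, so the close agreement of MSX2 depends on the unit. MSX1 was highest in IP replicate 1, in which FST and ATOH1 were lowest. ATOH1 was at 26.1, 36.0 and 33.2 CPM in IP replicates 1, 2 and 3. With 3 libraries no correlation was computed.

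In the IPs, MSX1 was the most abundant of the 3 genes per length, followed by MSX2 and then FST, and this order held in each IP library. In the input the order was MSX2, MSX1, FST. The neighbours in these orders did not overlap, as the lowest MSX1 value in an IP was 200 TPM and the highest MSX2 value 146 TPM. Of the 69548 transcripts in each file, 452, 558 and 745 had a higher TPM than MSX1 in the IPs, against 3078 in the input. For MSX2 it was 1031, 1098 and 1125 in the IPs, against 316 in the input. Of these transcripts, 45176 to 48264 had an estimated count above 0 in a library. Both MSX genes were therefore among the more abundant transcripts of every library, and both their levels and which of them led differed between IPs and input.

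MSX1 made up 69.1%, 65.9% and 60.4% of the summed MSX1 and MSX2 level in TPM in the IPs, against 9.90% in the input. As a ratio, MSX1 stood at 2.24, 1.93 and 1.53 times MSX2 in the IPs, whereas in the input MSX2 stood at 9.10 times MSX1. The log2 ratio of MSX1 to MSX2 was 0.91 ± 0.28 in the IPs (SD, n = 3) and -3.19 in the input, a difference of 4.09. This difference is many times the spread between IPs, but it rests on 1 input and has no test. It does not depend on how libraries are scaled, because both genes are read in the same library. The summed level of both genes was 473, 407 and 331 TPM in the IPs, against 510 TPM in the input, so the sum differed far less than its parts. With the input as labelled, the difference in log2 ratio was -1.71.

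**Figure D2:**
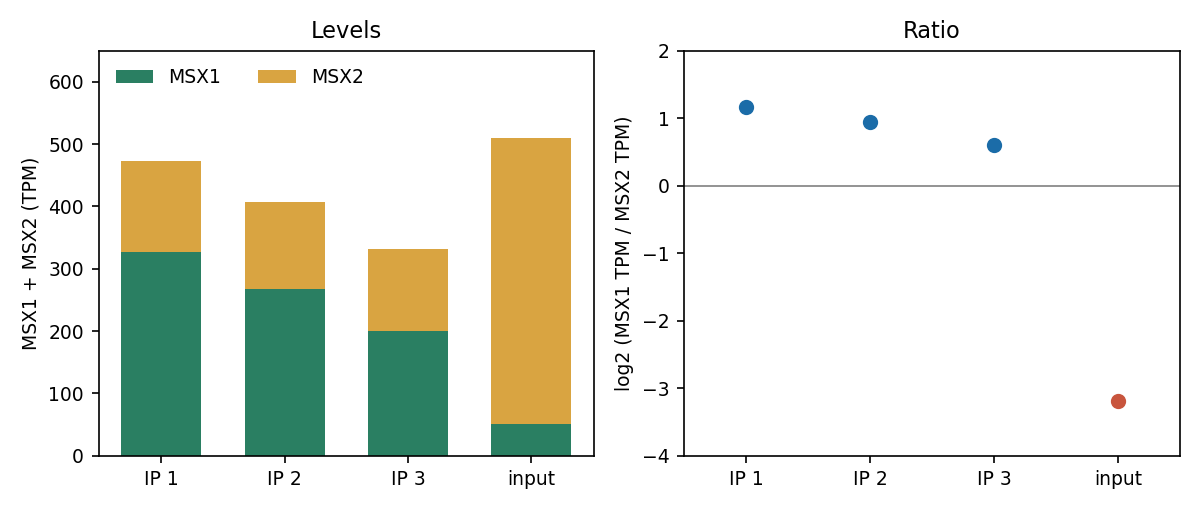
Left, stacked bars of the MSX1 and MSX2 level in TPM in IP replicates 1 to 3 and in the input. Right, the log2 ratio of MSX1 to MSX2 in each library, which lies between 0.61 and 1.16 in the IPs and at -3.19 in the input.

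The transcripts of follistatin did not move in equal measure. Of the FST reads, 80.6%, 83.5% and 84.5% were assigned to the transcript for 344 residues in the IPs, against 67.6% in the input. The exact (Clopper-Pearson) 95% binomial intervals were 78.7 to 82.4%, 81.8 to 85.0% and 82.9 to 86.1% in the IPs, against 62.7 to 72.2% in the input. They treat Salmon's estimated split as observed reads, so they are too narrow and are no test of IP against input. The share was 82.9 ± 2.02% in the IPs (SD, n = 3), 15.3 percentage points above the input. In level, the transcript for 344 residues was at 29.4, 34.8 and 31.7 TPM in the IPs, against 6.01 TPM in the input. The transcript for 317 residues was at 6.07, 5.91 and 4.97 TPM in the IPs, against 2.46 TPM in the input. Both were thus higher in every IP library, the transcript for the longer protein by more.

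In the fit of each transcript on its own, the transcript for 344 residues reached a log2 fold change of 2.75 ± 0.24 (standard error) with an adjusted p of 0.0338 by edgeR, where 1.95% of 46762 transcripts were called higher. The transcript for 317 residues reached 1.53 ± 0.43 and did not pass (edgeR adjusted p = 0.162). The difference between these fold changes was not tested. Salmon splits reads that fit both transcripts by estimate, and the input share rests on 129 reads of the transcript for 317 residues. With the input as labelled, the difference in share was -2.09 percentage points.

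**Figure D3:**
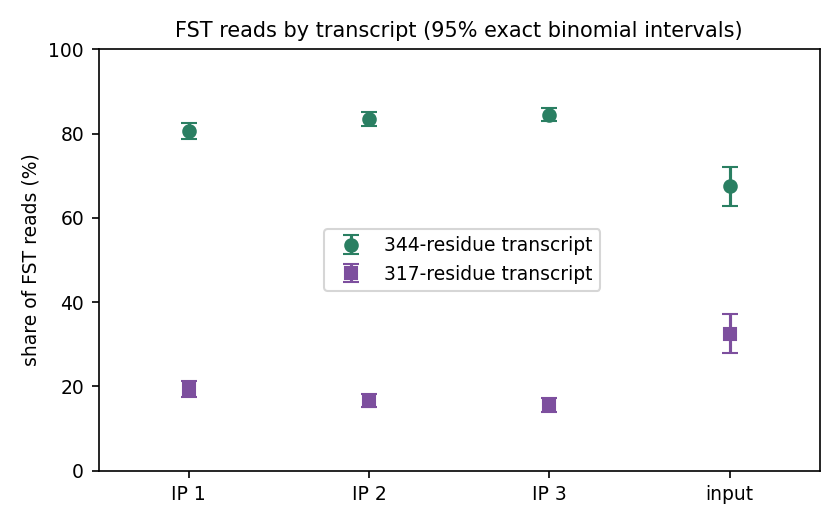
Share of FST reads in percent (vertical axis) assigned to the transcript for 344 residues (circles) and for 317 residues (squares) in IP replicates 1 to 3 and in the input, with 95% exact binomial intervals. The share of the 344-residue transcript lies between 80.6 and 84.5% in the IPs and at 67.6% in the input.

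The rest of the BMP and activin pathway was followed through lists of 72 further genes, of which 12 could be tied. By edgeR, 1 of these 12 was higher in the IPs, 3 were lower and 8 did not pass, where 29.2% of all tied genes were higher and 26.8% lower, so these counts do not set the pathway apart. Their median log2 fold change was -1.16, where the median over all genes and transcripts was 0.10 and over all tied genes 0.80. The genes that were not tied were not analysed here, and no activin or inhibin subunit was tied.

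Of 14 BMP ligands only BMP2 was tied. It was at 8.17, 6.08 and 5.41 TPM in the IPs, against 23.7 TPM in the input. Its log2 fold change of -1.53 missed the threshold (edgeR adjusted p = 0.0591). Of 12 receptors and co-receptors 2 were tied and neither passed. ACVR2B, a type II receptor shared by activins and BMPs, had a log2 fold change of 1.97 with an adjusted p of 0.0501, just above the threshold of 0.05. It was at 90.7, 81.7 and 61.7 CPM in the IPs, against 19.9 CPM in the input, and thus higher in each IP library. ENG, or endoglin, a co-receptor best known from endothelium, had a log2 fold change of -1.06 (edgeR adjusted p = 0.0770). SMAD4, the partner that all receptor-activated SMADs share, had one of -0.96 (edgeR adjusted p = 0.0903).

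Among the 16 secreted antagonists and processing enzymes 3 were tied, of which 2 were higher and 1 was lower. Of all tied genes 29.2% were higher and 26.8% lower. FST and SOST were the higher ones. SOST encodes sclerostin, which is built like the BMP antagonists of the DAN family but is known chiefly as an inhibitor of WNT signalling. It was at 88.9, 79.1 and 83.1 TPM in the IPs, against 3.05 TPM in the input, and its log2 fold change of 5.11 (edgeR adjusted p = 0.0161) was above that of FST. BMP1 was the lower gene, at a log2 fold change of -1.26 (edgeR adjusted p = 0.0479). Despite its name it is not a BMP but a protease that cuts procollagen and the BMP antagonist chordin.

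Of 16 transcription factors that respond to BMP 8 were tied, of which 1 was higher, 3 were lower and 4 did not pass, beside the same 29.2% and 26.8% of all tied genes. MSX1 was the higher one, and MSX2, TBX2 and DLX1 the lower ones. TBX2, a T-box repressor, was at 0.610, 1.26 and 1.30 TPM in the IPs, against 20.4 TPM in the input, and its log2 fold change was -3.93 (edgeR adjusted p = 0.0419). DLX1, a homeobox gene of forebrain neurons, branchial arches and limb, was at 8.82, 13.1 and 12.3 TPM in the IPs, against 53.1 TPM in the input, and its log2 fold change was -1.85 (edgeR adjusted p = 0.0495). Its linked relative DLX2 had a log2 fold change of -1.65 and did not pass (edgeR adjusted p = 0.0600), nor did the zinc finger gene GATA2 at -1.81 (edgeR adjusted p = 0.0630). ID2, an inhibitor of basic helix-loop-helix factors, was the most abundant of these genes at 969, 804 and 851 TPM in the IPs, against 584 TPM in the input. Its log2 fold change of 0.92 did not pass (edgeR adjusted p = 0.0523). LMX1A, a LIM homeobox gene that marks the roof plate, had a log2 fold change of 2.37 with a standard error of 0.70 and did not pass (edgeR adjusted p = 0.172).

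MSX1 and MSX2 thus stood on opposite sides of the input among genes that are counted as readouts of the same pathway. With 8 tied target factors, the counts say nothing particular about the group. The adjusted p-values of ACVR2B, ID2, BMP2, DLX2, BMP1, TBX2 and DLX1 lie close to the threshold on either side, so these counts rest on a narrow margin. With at least 50 counts required in 2 libraries, edgeR called 5 of the 15 tied genes (MSX1 and FST counted) as higher and 8 (MSX2 counted) as lower, against 3 and 4 as reported. Calls rose over all genes and transcripts too, to 1869 higher and 1149 lower of 27767 tested, against 1007 and 648 of 43817 as reported. The share among all tied genes was not counted in that setting.

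**Figure D4:**
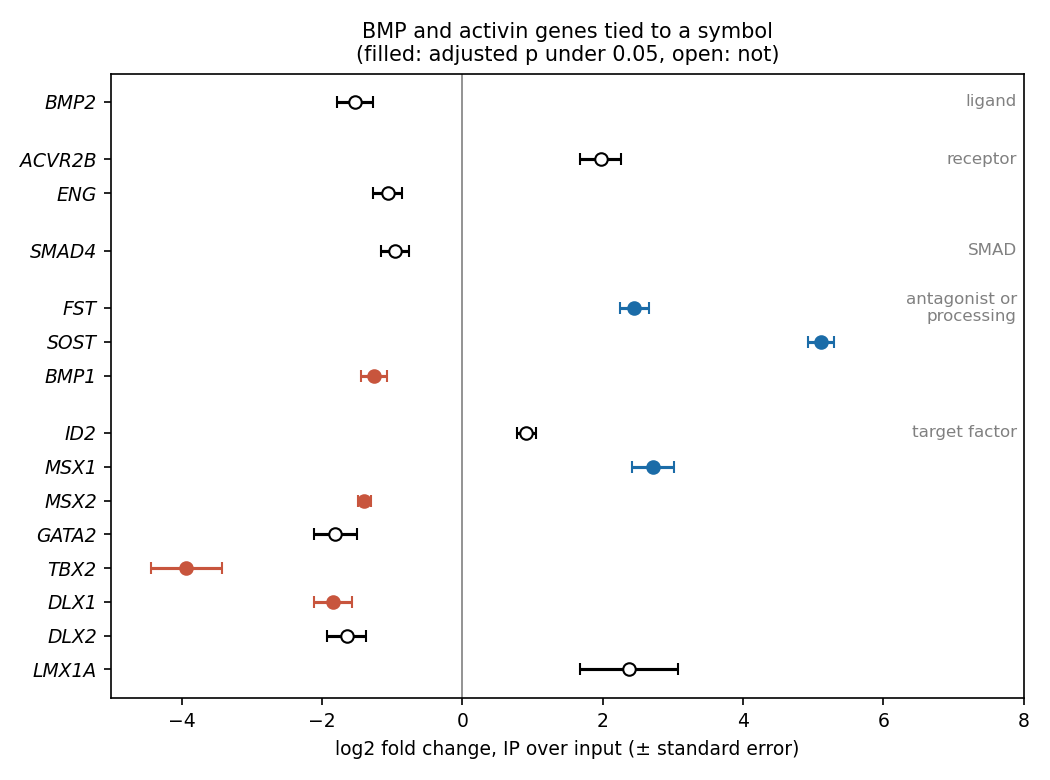
Log2 fold change of IP over input (horizontal axis, with its standard error) for the 15 tied BMP and activin genes, ordered by role. Filled points passed edgeR's test (blue higher in the IPs, red lower) and open points did not, and MSX1, FST and SOST are the only filled points to the right of 0.

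Markers of the cell types that the culture could hold also differed between IPs and input. By edgeR, the 8 tied markers of rhombic lip and granule cell progenitors, of 10 listed, were all higher in the IPs. Among all tied genes 29.2% were higher. Tied genes come from the study's own list of called genes, so a marker without a difference was unlikely to be tied. The 8 markers had a summed level of 1217 to 1619 CPM in the IPs, against 69.7 CPM in the input. ATOH1 (log2 fold change 7.49) and OLIG3 (6.82) led them. HES6, at 873 to 1293 CPM in the IPs, against 17.8 CPM in the input, makes up most of the IP sum, and the other 7 sum to 326, 355 and 344 CPM in IP replicates 1, 2 and 3, against 51.9 CPM in the input. Of the roof plate list 4 of 9 markers were tied and 3 were higher, beside the same 29.2% of all tied genes. WNT1 (7.51) and RSPO1 (4.08) led them. The roof plate sum was 550 to 673 CPM in the IPs, against 48.7 CPM in the input. RSPO3 carries most of it, and the other 3 sum to 93.7 to 109 CPM in the IPs, against 4.79 CPM in the input. HES6 and RSPO3, named after their values were seen, were highest in IP replicate 1, as was MSX1, but ATOH1, OLIG3 and WNT1 were lowest there.

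Of the 18 markers of the mesenchyme list 8 were tied, of which 3 were lower, 1 was higher and 4 did not pass. Among all tied genes 26.8% were lower and 29.2% higher. The 8 mesenchyme markers had a sum of 2083 to 2214 CPM in the IPs, against 4307 CPM in the input. COL1A1, a collagen gene also named after its values were seen, makes up 2878 CPM of the input sum, and the other 7 sum to 1016, 1089 and 1255 CPM in the IPs, against 1429 CPM in the input. The members with the largest fold changes, MEOX2 (-2.63) and FOXF2 (-2.38), did not pass. The higher one was the smooth muscle gene TAGLN (1.07), named after its value was seen. Of the endothelium list 2 of 8 were tied, with a sum of 191 to 235 CPM in the IPs, against 1009 CPM in the input. ADGRL4 was lower by edgeR at -3.38, beside the same 26.8% of all tied genes, and ENG is given above. Of the neural crest list only SNAI2 was tied, at 191, 203 and 214 CPM in the IPs, against 388 CPM in the input. SNAI2 is also 1 of the 3 lower markers of the mesenchyme list. Of the 7 markers of neural stem cells and glia 3 were tied. SOX2 was higher (3.49), SOX9 lower (-1.81) and FABP7 (1.75) did not pass, beside the same 29.2% and 26.8% of all tied genes. Scaled to GAPDH, SNAI2 stood at -0.10 and COL1A1 at -0.61, and neither was called, whereas ADGRL4 (-2.53) and SOX9 (-0.97) stayed lower by edgeR. No tied marker of any list was at 0 in a library. The part of other cell types in the values of MSX1, MSX2 and FST was not tested.

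Some tied genes followed the 3 genes closely over the 4 libraries, as judged by the Euclidean distance between log2 CPM values centred on each gene's own mean. To MSX1 the nearest of 1650 genes were RIPPLY3, a corepressor that works with T-box factors, at a distance of 0.13, SNCG, which encodes gamma-synuclein, at 0.14, and APCDD1, a membrane inhibitor of WNT signalling, at 0.16. APCDD1 was at 949, 750 and 672 CPM in the IPs, against 130 CPM in the input, and like MSX1 it was highest in IP replicate 1. To MSX2 the nearest were AEN, a nuclease, at 0.041, STAT2, a transcription factor of interferon signalling, at 0.044 and UBAP2L, an RNA-binding protein of stress granules, at 0.056. To FST the nearest were CKB, the brain creatine kinase, at 0.034, ENO3, an enolase, at 0.048 and ELAVL2, a neuronal RNA-binding protein, at 0.083. CKB was at 195, 225 and 220 CPM in the IPs, against 39.4 CPM in the input. With TPM in place of CPM, all 3 neighbours of MSX1 stayed, 1 of those of FST (CKB) and 0 of those of MSX2. These distances are descriptions over 4 libraries, 3 of them of 1 group.

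**Figure D5:**
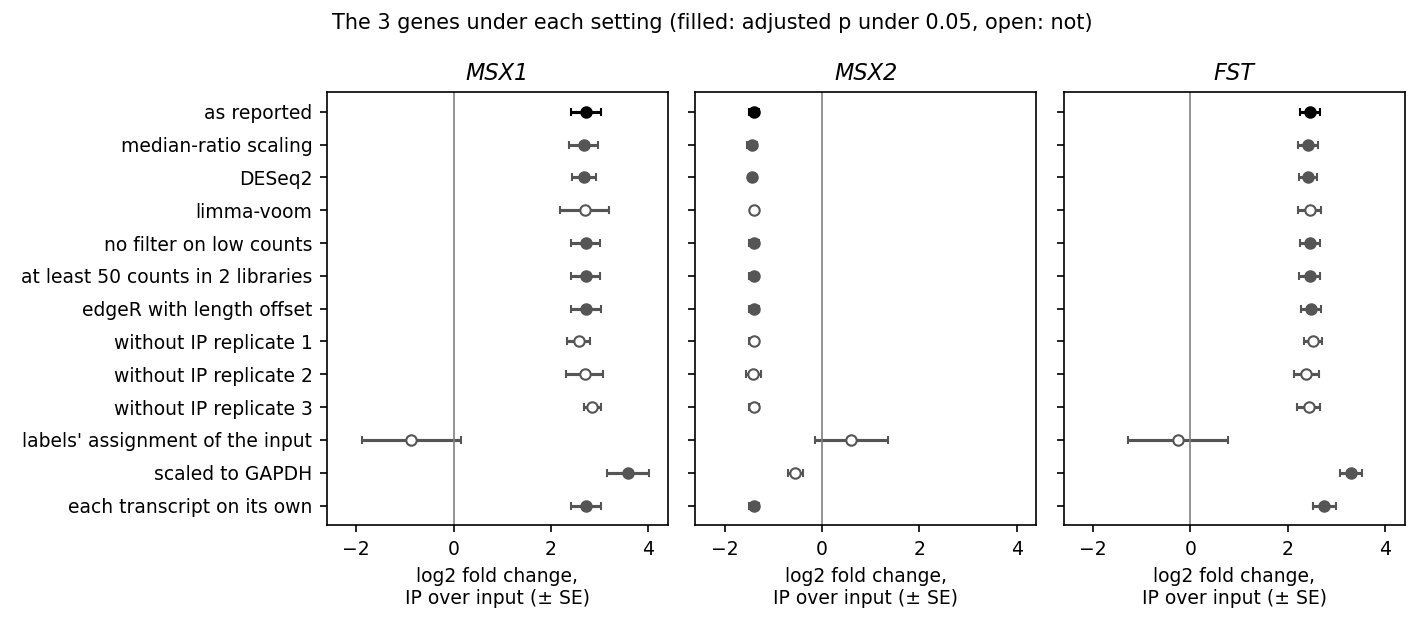
Log2 fold change of IP over input (horizontal axes, with standard error) of MSX1, MSX2 and FST under each setting, with filled points where the adjusted p was under 0.05. The points stay on one side of 0 except where the input is taken as labelled, at -0.87 for MSX1, 0.60 for MSX2 and -0.26 for FST. With each transcript on its own, the FST point is the transcript for 344 residues.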

How the data were processed

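Per the labels and the study's methods, RNA bound to tagged ribosomes and input RNA were made into full-length cDNA (SMART-Seq v4) and Nextera XT libraries, which do not mark strand, and sequenced as single reads of 75 bases. The authors quantified them with Salmon 0.8.2 against hg19 UCSC transcripts. What was deposited is Salmon's estimated count and TPM of each of 69548 transcripts per library.

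Genes were named through the study's own table, of which 1998 genes were available here: up to 20 neighbouring transcripts whose sum matched a gene in mean count (within 2%) and in log2 fold change (to 1e-05) were joined, which tied 1650 genes, 472 of them on 1 transcript. The same search tied 31 genes after the fold changes had been shifted. The table's fold changes and p-values were used for nothing else than this tie and the check of the input. MSX1 rests on uc003gif.3, MSX2 on uc003mcy.3 and FST on uc003jpc.3 and uc003jpd.3. Every other transcript was kept on its own, where gene counts had been planned.

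Estimated counts were rounded and tested with edgeR 4.0.16 in R 4.3.3 (TMM, minimum count 10, quasi-likelihood test, Benjamini-Hochberg adjustment, threshold 0.05). Standard errors were derived from the fold change and its F statistic. The functions were tested on simulated data with large planted changes and less spread than edgeR estimated here. That checks the code and not the error rates in these data. Locations, sequences and residue counts come from GRCh37 with the GENCODE annotation. Alternatives were median-ratio scaling, DESeq2 1.42.0, limma-voom (limma 3.58.1), no filter, at least 50 counts in 2 libraries, a length offset, each IP left out, the input as labelled and each transcript on its own. Scaling to GAPDH was added after seeing the data, as were leaving out IPs for the MSX ratio and the FST share and the input as labelled for the FST share. The named genes are MSX1, MSX2 and FST, all tied genes of the pathway lists, ATOH1, GAPDH, the 3 tied genes nearest in pattern to each of the 3 genes, and up to 4 leading genes of each marker list. TAGLN, HES6, RSPO3 and COL1A1 were named after their values were seen. The genes and lists were chosen with earlier results of these data known. Results on items withheld from this text are not reported here.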

Additional observations from a re-analysis of the deposited data

How the results depend on the processing

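MSX1, MSX2 and FST kept their direction and stayed past the threshold with median-ratio scaling, DESeq2, no filter, at least 50 counts in 2 libraries, a length offset and each transcript on its own. In the last of these, FST stands for its transcript for 344 residues, and the transcript for 317 residues did not pass. With limma-voom the log2 fold changes were 2.69 for MSX1, -1.40 for MSX2 and 2.45 for FST, and adjusted p was 0.101, 0.0551 and 0.0692, all above the threshold. Leaving out each IP library in turn gave 2.57 to 2.85 for MSX1, -1.41 to -1.40 for MSX2 and 2.38 to 2.52 for FST. By edgeR, adjusted p was above the threshold in each of these fits. They and limma-voom called 0 of all genes and transcripts in either direction. Why the calls were lost was not tested. Scaled to GAPDH, MSX2 was at -0.55 and no longer called. Leaving out IPs left the log2 MSX1 to MSX2 difference between 3.97 and 4.24 and the FST share difference between 14.4 and 16.4 percentage points, and CPM or TPM changed neither by more than the spread between IPs.

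With the input as labelled, the values turned to -0.87 for MSX1, 0.60 for MSX2, -0.26 for FST, -1.71 for the log2 ratio of MSX1 to MSX2 and -2.09 percentage points for the FST share. Turned as well were ATOH1 (-0.17), GAPDH (0.50), BMP2 (0.37), ACVR2B (-0.74), ENG (0.34), SMAD4 (0.68), SOST (-0.61), BMP1 (0.71), ID2 (-0.38), GATA2 (0.77), TBX2 (3.42), DLX1 (1.33), DLX2 (0.81), RIPPLY3 (-0.77), SNCG (-0.97), APCDD1 (-0.88), AEN (0.59), STAT2 (0.65), UBAP2L (0.65), CKB (-0.27), ENO3 (-0.21), ELAVL2 (-0.25), WNT1 (-0.37), RSPO1 (-1.24), MEOX2 (1.66), FOXF2 (0.64), SNAI2 (0.49), ADGRL4 (1.99), SOX2 (-0.21), SOX9 (1.06), HES6 (-1.06), RSPO3 (-0.80), COL1A1 (0.63) and TAGLN (-0.11). None of these passed the test.

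The number of genes and transcripts called higher and lower was 5786 and 3991 with DESeq2, 1869 and 1149 with at least 50 counts in 2 libraries, 3775 and 172 scaled to GAPDH, and 0 and 0 with limma-voom, without any 1 IP library and with the input as labelled, against 1007 and 648 by edgeR as reported. At an unadjusted p under 0.05 limma-voom had 3794 higher and 6407 lower, edgeR with the input as labelled 1034 and 229, and edgeR without 1 IP library 3574 to 4270 higher and 3130 to 3675 lower. Of the 15 tied BMP and activin genes, 3 were higher and 4 lower as reported, 6 and 9 with DESeq2, 5 and 8 with at least 50 counts in 2 libraries, 5 and 1 scaled to GAPDH, 2 lower with no filter, and 0 in either direction with limma-voom, without any 1 IP library and with the input as labelled. The share of all tied genes called was not counted for these alternatives, and tied genes come from the study's own DESeq2 list of called genes. The cause of these differences between settings was not tested. No paired analysis was possible because the input is 1 library. The FST values are limited by 398 input reads.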
